A study of Ovis aries with 18 samples.

Results

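The comparison described here set the pars tuberalis (PT) of sheep held on long photoperiod for 4 weeks (LP4) against that of sheep held on short photoperiod for 4 weeks (SP4), gene by gene over the whole transcriptome. All animals were neutered male Scottish Blackface sheep, and total RNA of the dissected PT was sequenced from each. The series held 18 libraries from 16 animals in 4 groups, the other 2 being short photoperiod for 16 weeks (SP16) and long photoperiod for 22 weeks (LP22), each with 4 animals. The comparison used 8 of the 18 libraries, from 7 animals: SP4 animals 1 to 4, whose animal 1 had a repeat library that was added to its first, and LP4 animals 1, 2 and 4, animal 2 being represented by its repeat library alone. Left out, because they stood apart from all the others, were the library of LP4 animal 3 and the earlier of the pair from LP4 animal 2. LP4 therefore rested on 3 animals. The p-values rest on the spread between animals within groups, estimated over all 4 groups together (15 animals), not over these 7 alone. The labels do not say how the animals were assigned to groups or at what time of day they were sampled.

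The PT is the part of the pituitary that wraps the stalk beneath the hypothalamus, and its specialised thyrotrophs carry a dense population of melatonin receptors. The length of the nightly melatonin signal sets how much thyrotrophin these cells secrete. Thyrotrophin from the PT acts on tanycytes of the neighbouring hypothalamus, where it raises deiodinase activity and so local thyroid hormone, and this relay drives seasonal reproduction. In a bulk tissue sample, fewer cells of a type and less RNA per cell cannot be told apart.

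The 8 libraries used held 1730773 to 4119508 counts in genes, and each correlated with the others at a median r of 0.963 to 0.975 on log2 CPM across genes, CPM being counts per 1000000 counts of the scaled library. The left-out library of LP4 animal 3 had a median r of 0.773 and placed 52.6% of its aligned reads in genes. The left-out first library of LP4 animal 2 had a median r of 0.892 and 31.0% in genes, against 15.8% to 21.3% in the libraries used. Both went against their label at the gene that moved most: TSHB, the thyrotrophin beta subunit, stood at 1.06 CPM in LP4 animal 3 and at 8.55 CPM in the first library of LP4 animal 2, whereas the repeat library of that same animal read 277 CPM. With LP4 animal 3 put back, 12 genes were called in place of 241, and with both put back 27. The choice of libraries therefore decided most of the calls described here.

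Of the libraries used, the repeat of LP4 animal 2 was also unlike the rest. Its 10 most abundant genes took 59.2% of its counts, against 38.6% to 47.0% in the other 7 libraries. Small nuclear, nucleolar and other structural RNAs took 16.5% of its counts, against 7.57% to 10.8% in the other 6 animals. Without that animal 226 genes were called (1.64% of those tested), 149 of them among the 241, and 240 of the 241 had the same sign. Values without it are given below for each named gene whose call they alter.

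The labelled tissue was checked against its markers. The thyrotroph genes CGA and MTNR1A were measured in each of the 7 animals, at 255 to 1417 CPM and 234 to 427 CPM. EYA3 and PITX1 were too, at 34.2 to 52.1 CPM and 42.7 to 99.2 CPM. Of the other thyrotroph markers set for the check, TSHB read 1.39 to 11.3 CPM in SP4 and 277 to 538 CPM in LP4. POU1F1 was near the floor, at 0 to 2.47 CPM in 6 animals, and stood at 26.2 CPM in SP4 animal 4. The summed level of 9 endocrine markers of the adjoining pars distalis ran from 106 to 938 CPM in 6 animals and reached 7962 CPM in SP4 animal 4. Prolactin (PRL) alone accounted for 6688 CPM in SP4 animal 4. The summed level of 24 interferon-stimulated genes was 1852 CPM in SP4 animal 1 and 410 to 539 CPM in the other 6 animals. For several genes and lists in which these animals weigh, values without them are given below.

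**Figure D1:**
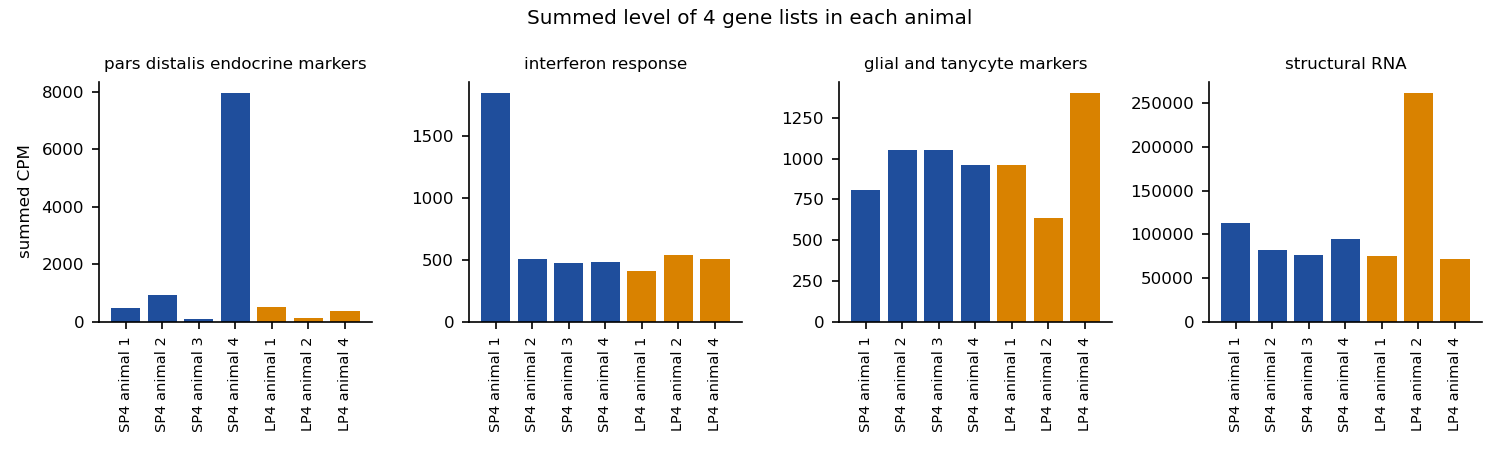
Summed CPM of 4 gene lists (vertical axes, linear, starting at 0) in each animal of SP4 (blue) and LP4 (orange), 1 bar per animal. Pars distalis markers stood at 7962 CPM in SP4 animal 4, interferon genes at 1852 CPM in SP4 animal 1, and structural RNAs at 262057 CPM in LP4 animal 2, each above the other 6 animals.

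Between LP4 and SP4, 241 of 13446 genes tested differed, 1.79% of them (edgeR quasi-likelihood test, adjusted p under 0.05). In LP4, 164 genes were higher (1.22%) and 77 were lower (0.573%). Most of these differences were moderate, with a median log2 fold change of 0.88 among the higher genes and -0.89 among the lower ones, and a median of 0.00 over all genes tested. The few large changes were mostly increases: 9 genes rose by at least 3 on the log2 scale and 1 fell by as much. The 9 included the structural RNAs SNORA46 and SNORA64, at 3.60 and 3.06, which stood at 0.57 and 0.65 without LP4 animal 2. Structural RNAs made up 15 of the 164 higher genes. The LP4 and SP4 animals did not overlap at 227 of the 241 genes, against 11.6% of all genes tested. A symbol could be attached to 160 of the 241 called genes. Members of the gene lists below could come only from genes with a symbol, which the study had called changed partly on these samples. Of the 1080 such genes tested, 14.8% were called here, 10.6% as higher and 4.26% as lower, with a median log2 fold change of 0.17. A share of called genes near 14.8% is therefore no result about a list.

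**Figure D2:**
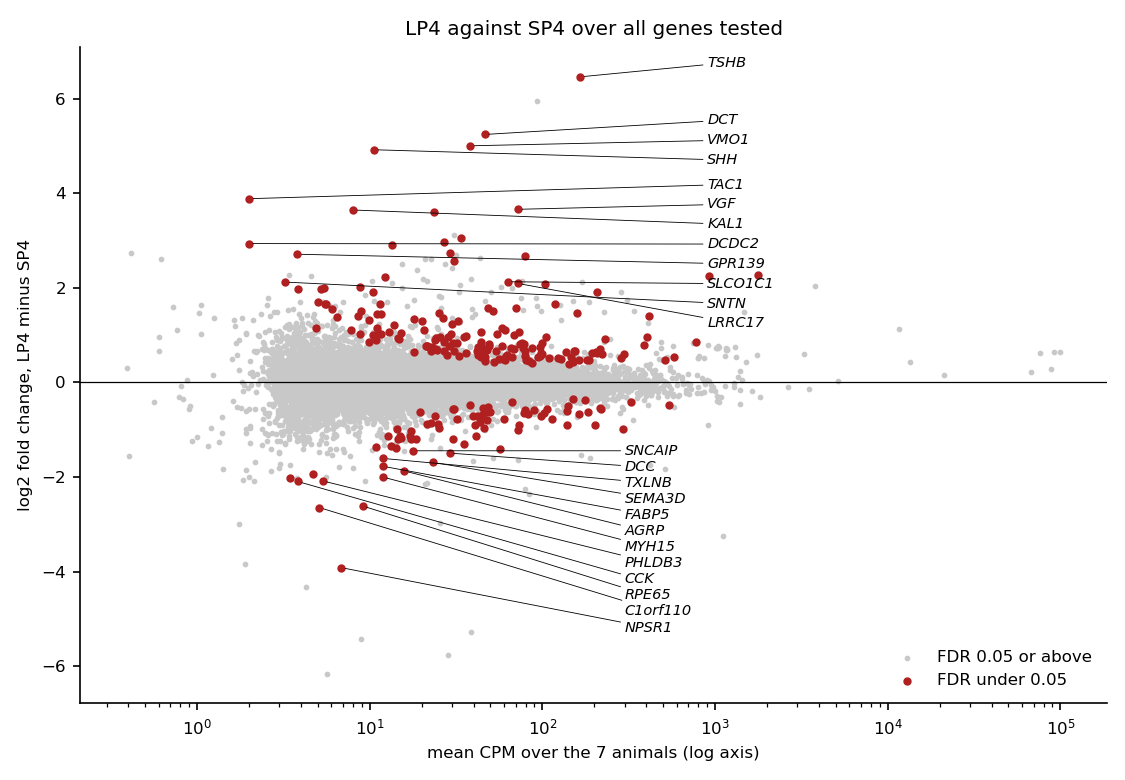
Log2 fold change, LP4 minus SP4 (vertical axis), against the mean CPM over the 7 animals (horizontal log axis) for each of the 13446 genes tested, with the 241 called genes in red and the 12 highest and 12 lowest named genes labelled. TSHB is the highest labelled gene at 6.47, and NPSR1 is the lowest labelled gene at -3.92.

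Among the genes of the thyrotroph relay, thyrotrophin itself and genes that move and convert thyroid hormone changed, while the upstream regulators did not pass the test. Of 12 relay genes tested, 3 were higher in LP4 (TSHB, SLCO1C1 and DIO2) and 1 was lower, with a list median of 0.16. That is 33.3% called, against 14.8% of genes with a symbol. TSHB (ENSOARG00000020127) read 538, 277 and 328 CPM in LP4 animals 1, 2 and 4, and 2.67, 3.30, 1.39 and 11.3 CPM in SP4 animals 1 to 4. The lowest LP4 animal stood far above the highest SP4 animal, which was animal 4, the one rich in pars distalis markers. The increase was 88.4-fold, a log2 fold change of 6.47 ± 0.51 (SE, adjusted p = 8.48e-07), and 7.21 without SP4 animal 4. With LP4 animal 3 put back it was 5.97 (adjusted p = 0.0711), and 0 relay genes were called in that fit.

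CGA encodes the alpha subunit with which the TSHB product pairs, and its groups overlapped. CGA read 1417, 794 and 759 CPM in LP4 and 356, 266, 255 and 1337 CPM in SP4. The 1337 CPM again belonged to SP4 animal 4, and all other SP4 animals lay below every LP4 animal. The log2 fold change was 0.84 ± 0.53 (adjusted p = 0.523), and 1.76 without SP4 animal 4 (adjusted p = 0.0598). The pituitary transcription factor POU1F1 followed the same animal, at 26.2 CPM in SP4 animal 4 and 0 to 2.47 CPM in the other 6. Its log2 fold change was -4.32 (adjusted p = 0.331), and -1.41 without SP4 animal 4 (adjusted p = 0.841). The part of pars distalis tissue in the CGA values was not tested.

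A transporter and a converting enzyme of thyroid hormone were higher in LP4. SLCO1C1, a thyroxine transporter, read 87.8, 85.4 and 165 CPM in LP4 and 25.5, 24.3, 32.4 and 20.8 CPM in SP4, a log2 fold change of 2.13 ± 0.26 (adjusted p = 0.000193). The call held when any 1 animal was left out. DIO2, the deiodinase that activates thyroxine, read 69.8, 65.3 and 125 CPM in LP4 and 33.0, 46.2, 41.2 and 42.4 CPM in SP4. Its increase of 1.11 ± 0.23 (adjusted p = 0.0160) was less firm: without LP4 animal 4 the adjusted p was 0.0815, and without SP4 animal 1 it was 0.0579.

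The remaining relay genes did not pass the test. EYA3, a transcriptional coactivator of TSHB, read 42.1, 35.6 and 40.3 CPM in LP4 and 52.1, 39.6, 34.2 and 41.99 CPM in SP4, a log2 fold change of -0.12 with a 95% interval from -0.40 to 0.17. MTNR1A, the melatonin receptor, gave -0.32 with an interval from -0.68 to 0.05. TSHR, the thyrotrophin receptor, stood at 0.59 (adjusted p = 0.166), and at 0.80 without LP4 animal 2 (adjusted p = 0.0362). PITX1, a pituitary homeobox factor, stood at 0.43 (adjusted p = 0.379), and at 0.72 without LP4 animal 2 (adjusted p = 0.0265). The thyroid hormone receptor gene THRA was lower in each LP4 animal than in each SP4 animal, with a log2 fold change of -0.50 that missed the threshold (adjusted p = 0.0765) and passed it without LP4 animal 4 (adjusted p = 0.0237). TRHR, the receptor for thyrotrophin-releasing hormone, stood at -1.80 (adjusted p = 0.447), with its highest value of 11.3 CPM in SP4 animal 4.

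**Figure D3:**
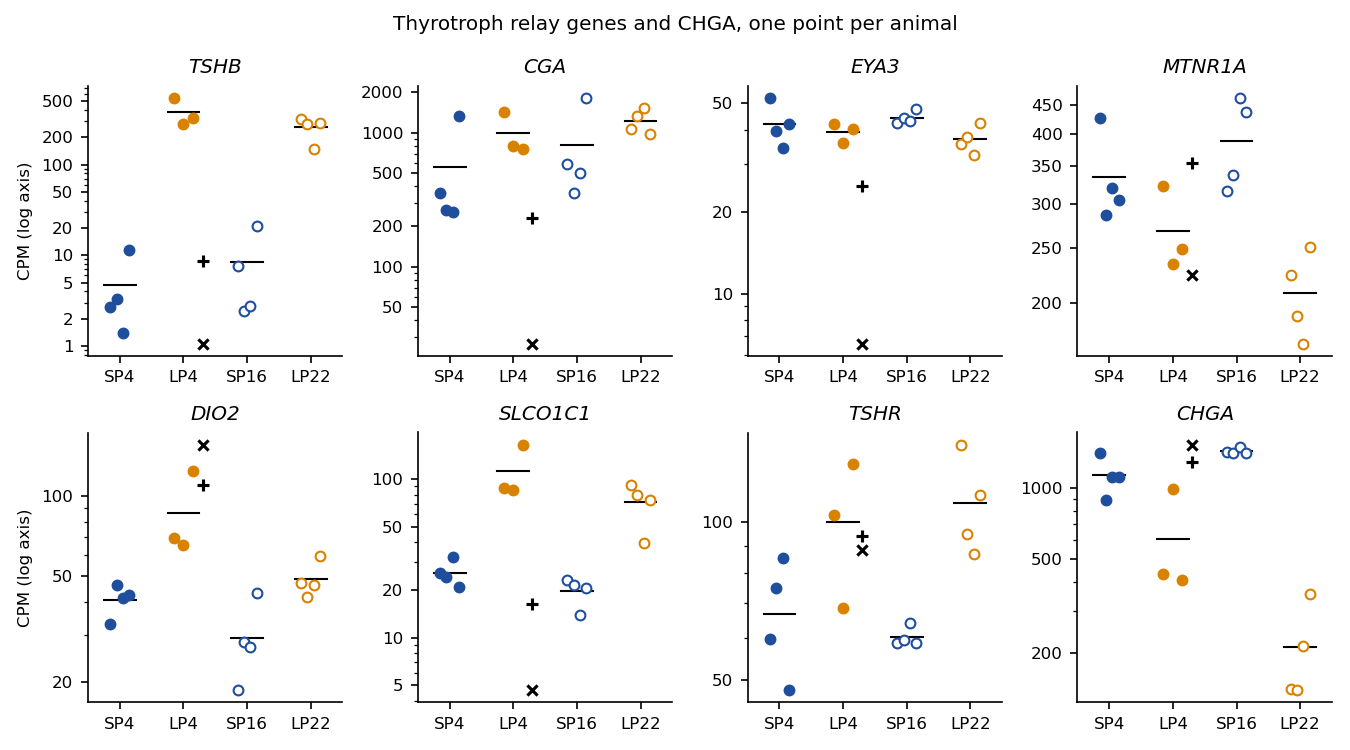
CPM on log axes for 7 relay genes and CHGA in the 4 groups, 1 point per animal, filled for SP4 and LP4 and open for SP16 and LP22, with a line at the group mean. The crosses beside LP4 are the left-out library of LP4 animal 3 (diagonal) and the left-out first library of LP4 animal 2 (upright), which stood at 1.06 and 8.55 CPM for TSHB, within or below the SP4 animals.

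The study chose 5 genes as short photoperiod markers partly on these samples, so their direction here is not independent evidence. Of the 5, 3 were lower in LP4, and the list median was -1.35. NPSR1, the neuropeptide S receptor, read 0.82, 0.42 and 0.84 CPM in LP4 and 8.38, 11.1, 19.4 and 6.77 CPM in SP4. It fell by 3.92 on the log2 scale (SE 0.62, adjusted p = 0.00214), on 5 counts in LP4 against 131 in SP4, a ratio of 15.2 with a counting interval from 6.37 to 47.7. C1orf110 fell by 2.65 (SE 0.38, adjusted p = 0.00105), from 5.77 to 9.93 CPM in SP4 to 0.82 to 2.10 CPM in LP4. Both calls held in all 7 leave-one-out fits and with LP4 animal 3 put back. PAQR6, a progestin receptor family member, fell by 1.35 (adjusted p = 0.0347; 0.115 without LP4 animal 2) and held its call in 3 of 7 such fits.

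CHGA, the granin that packs secretory granules, depended on a single animal. CHGA read 431, 991 and 406 CPM in LP4 and 1402, 891, 1111 and 1117 CPM in SP4, so that LP4 animal 2 lay within the SP4 range and the other 2 LP4 animals below it. The log2 fold change was -0.89 ± 0.31 (adjusted p = 0.169), and -1.43 without LP4 animal 2 (adjusted p = 0.0112). SOX14, a transcription factor, read 10.2, 8.38 and 14.3 CPM in LP4 and 21.7 to 28.0 CPM in SP4, without overlap, at -1.18 (adjusted p = 0.0620).

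The 12 highest and 12 lowest called genes with a symbol were named under the condition that the LP4 and SP4 animals did not overlap, so the gap between the groups at these genes is no finding. The largest increases beside TSHB fell on genes of pigment synthesis, secreted signals, peptides and membrane proteins. DCT, a tautomerase of melanin synthesis, read 99.6, 52.8 and 160 CPM in LP4 and 2.14, 3.71, 3.70 and 1.81 CPM in SP4, a log2 fold change of 5.25 ± 0.46 (adjusted p = 2.83e-06). VMO1 read 147, 56.1 and 55.0 CPM in LP4 and 3.21, 0.41, 3.24 and 3.16 CPM in SP4, a log2 fold change of 5.01 ± 0.54 (adjusted p = 4.39e-05). SHH, the sonic hedgehog morphogen, read 25.3, 17.6 and 28.1 CPM in LP4 and 0.535, 1.65, 0.463 and 0.451 CPM in SP4, a log2 fold change of 4.92 ± 0.38 (adjusted p = 8.48e-07). VGF, a granin-like neuropeptide precursor, rose from 9.09 to 16.2 CPM in SP4 to 79.2 to 195 CPM in LP4, by 3.66 ± 0.33 (adjusted p = 3.49e-06). KAL1, which encodes the matrix protein anosmin, read 18.0, 16.8 and 15.9 CPM in LP4 and 1.07, 2.47, 0.46 and 1.35 CPM in SP4, a rise of 3.65 ± 0.29 (adjusted p = 8.48e-07). LRRC17, a leucine-rich repeat protein, read 134, 133 and 118 CPM in LP4 and 31.7, 26.0, 40.3 and 21.7 CPM in SP4, a rise of 2.10 ± 0.18 (adjusted p = 2.83e-06). These 6 calls held in all 7 leave-one-out fits.

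The other members of the top 12 were expressed at lower levels and were less secure. TAC1, the precursor of substance P, had 31 counts in LP4 against 3 in SP4, a ratio of 17.8 with a counting interval from 5.54 to 90.8. Its log2 fold change was 3.89 (adjusted p = 0.0331), and the call held only without SP4 animal 3. DCDC2, a doublecortin family protein that binds microtubules, had 29 counts against 6, a ratio of 8.31 with an interval from 3.39 to 24.5, and rose by 2.94 (adjusted p = 0.0232). GPR139, an orphan receptor, rose by 2.71 (adjusted p = 0.0238), from 0.41 to 1.85 CPM in SP4 to 2.93 to 11.4 CPM in LP4. SNTN, a protein of the tip of motile cilia, rose by 2.12 (adjusted p = 0.0377), from 0.82 to 1.81 CPM to 4.20 to 7.35 CPM. The calls held in 3 of 7 leave-one-out fits for DCDC2, 4 for GPR139 and 1 for SNTN. Without LP4 animal 2 the adjusted p was 0.0886 for DCDC2 and 0.0855 for SNTN. In the left-out library of LP4 animal 3, 6 of the 12 highest genes stood above every SP4 animal, among them SHH at 60.3 CPM, DCT at 129 CPM, VMO1 at 219 CPM and VGF at 788 CPM, while TSHB, SLCO1C1 and LRRC17 did not. The share of all genes above every SP4 animal in that library was not computed.

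Among the genes lowered most were a retinoid enzyme, a lipid carrier, peptides and guidance molecules. RPE65, the retinoid isomerase of the visual cycle, read 3.27, 2.09 and 1.26 CPM in LP4 and 9.45, 13.6, 24.99 and 9.03 CPM in SP4, and fell by 2.61 on the log2 scale (SE 0.41, adjusted p = 0.00211). FABP5, a carrier of fatty acids, read 6.13, 2.93 and 5.46 CPM in LP4 and 9.81, 19.0, 21.3 and 19.0 CPM in SP4, and fell by 1.77 (SE 0.37, adjusted p = 0.0176). SNCAIP, a synuclein-binding protein, fell by 1.45 (SE 0.23, adjusted p = 0.00198), from 19.6 to 30.5 CPM in SP4 to 7.54 to 10.9 CPM in LP4. RPE65 and SNCAIP held in each leave-one-out fit, whereas FABP5 lost its call without LP4 animal 2 (adjusted p = 0.0718) or SP4 animal 2 (0.0514). MYH15, a myosin heavy chain, fell by 2.00 (adjusted p = 0.0128) and lost its call without LP4 animal 1 (adjusted p = 0.0628). Without SP4 animal 1, its highest animal, MYH15 fell by 1.47 (adjusted p = 0.0353). PHLDB3 fell by 2.08 (adjusted p = 0.0211; 4 of 7 fits) and TXLNB by 1.61 (adjusted p = 0.0427; 1 of 7 fits), and both calls were lost without LP4 animal 2 (adjusted p = 0.0649 and 0.0555). In the left-out library of LP4 animal 3, 9 of the 12 lowest genes stood below every SP4 animal. That library also stood below every SP4 animal at EYA3 (6.58 CPM), which was not called, and at SLCO1C1 (4.67 CPM), which was called higher. The share of all genes at which it did so was not computed, so the 9 of 12 is no evidence for the decreases.

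Of 9 neuropeptide genes tested, 1 was higher (TAC1) and 2 were lower, with a list median of -0.15. The called share was 33.3%, against 14.8% of genes with a symbol, on few genes. CCK, cholecystokinin, read 1.63, 0.42 and 1.68 CPM in LP4 and 3.21, 6.60, 7.40 and 5.87 CPM in SP4, a fall of 2.09 (adjusted p = 0.0325). AGRP, the agouti-related peptide of arcuate neurons, read 8.17, 2.93 and 7.14 CPM in LP4 and 10.7, 39.2, 20.8 and 22.1 CPM in SP4, a fall of 1.87 (adjusted p = 0.0347). Each held its call only without SP4 animal 1, and all 3 calls were absent without LP4 animal 2, where the adjusted p was 0.050002 for TAC1, 0.125 for CCK and 0.132 for AGRP.

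Some genes of the secretory pathway rose. Of 13 secretory granule and prohormone processing genes tested, 3 were higher and 0 lower, with a median of 0.31. The called share was 23.1%, against 14.8% of genes with a symbol, and the difference was not tested. PCSK1, the prohormone convertase, read 415, 273 and 381 CPM in LP4 and 110, 87.4, 89.8 and 90.7 CPM in SP4, a rise of 1.91 ± 0.15 (adjusted p = 8.48e-07) that held in all leave-one-out fits and with LP4 animal 3 put back. PTPRN, a membrane protein of dense-core vesicles, read 136, 68.3 and 106 CPM in LP4 and 42.4, 52.0, 45.8 and 59.1 CPM in SP4, a rise of 1.07 ± 0.20 (adjusted p = 0.00889; 0.0573 without LP4 animal 1). The third was VGF. Without LP4 animal 2, CHGA of this list was lower, as given above.

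Of 12 endoplasmic reticulum and Golgi genes tested, 7 were higher (58.3%, against 10.6% of genes with a symbol) and 0 were lower. All 12 had a positive log2 fold change, with a median of 0.66 against 0.17 over genes with a symbol and 0.00 over all genes. The members were chosen with earlier results of these data known, so their called share and shared sign are not independent evidence. The changes were small and even. GOLM1, a Golgi membrane protein, read 115, 110 and 110 CPM in LP4 and 64.4, 71.3, 67.1 and 68.6 CPM in SP4, a rise of 0.72 ± 0.10 (adjusted p = 0.00107) kept in all leave-one-out fits. MLEC, a lectin of N-glycosylation in the endoplasmic reticulum, rose by 0.68 ± 0.14 (adjusted p = 0.0169), from 18.2 to 22.1 CPM to 27.6 to 34.3 CPM. TXNDC16 rose by 0.83 (adjusted p = 0.0325), SEL1L3 by 0.78 (adjusted p = 0.0336), GNPTAB by 0.67 (adjusted p = 0.0157), CKAP4 by 0.57 (adjusted p = 0.0377) and ATP2C1, the calcium pump of the Golgi, by 0.54 (adjusted p = 0.0384). TXNDC16 was the 1 named gene of the list whose groups overlapped, with SP4 animal 4 at 34.8 CPM against 33.5 CPM in LP4 animal 2. Without SP4 animal 4 the TXNDC16 rise was 1.08 (adjusted p = 0.00204). The number called was 5 without LP4 animal 2, where the adjusted p was 0.0720 for SEL1L3 and 0.0638 for ATP2C1, 4 without SP4 animal 4, 2 without SP4 animal 1, and 0 with LP4 animal 3 put back.

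The circadian clock list split evenly, with 4 of 15 genes higher and 4 lower (53.3% called, against 14.8% of genes with a symbol). The increases included FBXL21, a ubiquitin ligase subunit that acts on cryptochromes, and the activators ARNTL2 and CLOCK. FBXL21 read 103, 72.0 and 57.9 CPM in LP4 and 23.7, 28.0, 34.7 and 19.0 CPM in SP4, a rise of 1.57 ± 0.30 (adjusted p = 0.0104; 0.0595 without LP4 animal 1). ARNTL2 rose by 1.505 ± 0.321 (adjusted p = 0.0204), from 3.92 to 6.94 CPM to 10.9 to 16.3 CPM, and held in 4 of 7 leave-one-out fits. CLOCK rose by 0.58 (adjusted p = 0.0160).

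The decreases were genes at the repressive and output side of the clock. NR1D2, a nuclear receptor that represses ARNTL, read 63.7, 59.0 and 63.0 CPM in LP4 and 94.3, 101, 94.0 and 102 CPM in SP4, and fell by 0.66 on the log2 scale (SE 0.10, adjusted p = 0.00126). NR1D1, its close relative, read 17.6, 18.0 and 13.9 CPM in LP4 and 40.7, 30.5, 24.5 and 31.2 CPM in SP4, and fell by 0.97 (adjusted p = 0.0316). DBP, an output transcription factor, fell by 0.84 (adjusted p = 0.0185), from 46.7 to 59.0 CPM to 24.7 to 35.1 CPM, but stood at 113 CPM in the left-out library of LP4 animal 3, and its sign turned when that library was put back. CRY2 fell by 0.72 (adjusted p = 0.0297). Without LP4 animal 2 the adjusted p was 0.0718 for DBP and 0.0702 for CRY2. CRY1, PER3 and CIART kept the groups apart without passing, at 0.69 (adjusted p = 0.0657), -0.62 (0.0585) and -1.09 (0.0935). NR1D1 held in 2 and DBP in 5 of 7 leave-one-out fits. Clock transcripts cycle over the day, and in another experiment of the study the tissue was taken in the middle of the light phase, which comes later after lights on under long than under short photoperiod. The sampling time of the present animals is not given in the sources used here, so that at these genes photoperiod and time after lights on cannot be told apart.

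Morphogen signalling genes gave 2 higher and 2 lower of 21 tested, with a median of -0.02, and their called share of 19.0% lay near the 14.8% of genes with a symbol. Beside SHH, the higher gene was MFNG, a fringe glycosyltransferase that modifies Notch receptors, at 20.01, 16.8 and 18.5 CPM in LP4 and 8.74, 8.25, 7.40 and 10.8 CPM in SP4 (log2 fold change 1.06 ± 0.21, adjusted p = 0.0142; 0.0521 without LP4 animal 1). RET, the receptor tyrosine kinase for GDNF family ligands, varied little within each group: it read 17.2, 18.8 and 15.9 CPM in LP4 and 38.9, 40.8, 39.3 and 41.1 CPM in SP4, and fell by 1.20 on the log2 scale (SE 0.18, adjusted p = 0.00154). WLS, which carries Wnt proteins to the cell surface, fell by 0.91 (SE 0.18, adjusted p = 0.0104), from 44.0 to 54.4 CPM to 20.1 to 33.5 CPM. RET and WLS kept their calls in all leave-one-out fits.

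Axon guidance and adhesion genes gave 3 higher and 4 lower of 26 tested, with a median of -0.22. The called share was 26.9%, against 14.8% of genes with a symbol, and the difference was not tested. SEMA3D, a secreted semaphorin, read 6.94, 9.21 and 14.7 CPM in LP4 and 33.3, 40.0, 38.0 and 21.7 CPM in SP4, and fell by 1.69 (SE 0.25, adjusted p = 0.00126). DCC, the netrin receptor, read 8.58, 18.0 and 16.4 CPM in LP4 and 45.5, 44.5, 39.8 and 30.2 CPM in SP4, and fell by 1.49 (SE 0.24, adjusted p = 0.00297). Both decreases held in all leave-one-out fits. GPR56, an adhesion receptor, fell by 1.14 (adjusted p = 0.0385; 0.138 without LP4 animal 2) and SLITRK4, a synaptic adhesion protein, by 0.89 (adjusted p = 0.0355; 0.0638 without it). CNTN1, a contactin, rose by 0.92 ± 0.14 (adjusted p = 0.00198), from 134 to 202 CPM to 300.1 to 331 CPM. The proteoglycan VCAN rose by 1.41 (adjusted p = 0.0244) with overlapping groups, since SP4 animal 4 stood at 441 CPM and the other SP4 animals at 163 to 199 CPM, against 427 to 810 CPM in LP4; without SP4 animal 4 the rise was 1.87 (adjusted p = 0.000856).

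Of 29 extracellular matrix genes tested, 4 were higher and 1 was lower, with a median of 0.47. The called share of 17.2% lay near the 14.8% of genes with a symbol. ACAN, the aggrecan core protein, read 15.5, 10.1 and 20.1 CPM in LP4 and 2.85, 4.95, 5.55 and 2.26 CPM in SP4, a rise of 2.02 ± 0.42 (adjusted p = 0.0166) that was lost without LP4 animal 4 (adjusted p = 0.0599) or SP4 animal 1 (0.0693). The collagen gene COL2A1 read 8.17, 6.70 and 12.2 CPM in LP4 and 1.60, 2.06, 2.78 and 3.16 CPM in SP4, a rise of 1.98 ± 0.37 (adjusted p = 0.00749). COL3A1 rose by 0.84 ± 0.16 (adjusted p = 0.00792), from 44.2 to 66.6 CPM to 93.4 to 110 CPM, and COL11A1 by 0.61 (adjusted p = 0.0295; 0.130 without LP4 animal 2). COL2A1 and COL3A1 held in all leave-one-out fits. SPON1, a spondin of the matrix, fell by 0.78 (adjusted p = 0.0493; 0.0956 without LP4 animal 2) and held in 1 of 7.

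Lists of acute stimulation, division and antiviral response showed 1, 1 and 0 calls. The called shares of acute stimulation and antiviral response, 8.33% and 0%, were below the 14.8% of genes with a symbol. That of division, 20%, was above it, on only 5 genes. Of 12 immediate early genes, 1 was higher, the MAP kinase phosphatase DUSP10 (log2 fold change 0.91 ± 0.19, adjusted p = 0.0167; 0.0527 without LP4 animal 4 and 0.0538 without SP4 animal 2). NAB2 and KLF10 stood at -0.48 and -0.60 and did not pass. Of 5 mitotic genes, 1 was higher, the spindle assembly factor TPX2 (1.02 ± 0.23, adjusted p = 0.0266; 3 of 7 leave-one-out fits, and 0.0855 without LP4 animal 2), while MKI67 stood at 0.47 (adjusted p = 0.806). None of the 20 interferon genes was called by edgeR, by its exact test or by DESeq2, and 7 had an unadjusted p under 0.05. Their median of -0.75, with 19 of 20 below 0, moved to -0.01 without SP4 animal 1, where IFIT1 stood at 279 CPM against 25.7 to 47.0 CPM in the other 6 animals.

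Few markers of neighbouring cells were called. None of 9 pars distalis markers was called by edgeR, its exact test or DESeq2, 3 had an unadjusted p under 0.05, and their median of -2.12 was -0.89 without SP4 animal 4. Ciliated and ependymal markers gave 1 higher (SNTN) and 1 lower of 12, with a median of -0.55 and 3 of 12 above 0. Their called share of 16.7% lay near the 14.8% of genes with a symbol. Their summed level was 219 to 244 CPM in LP4 and 280 to 349 CPM in SP4, so that each LP4 animal lay below each SP4 animal. DNAH5, a dynein of motile cilia, read 20.8, 20.5 and 15.1 CPM in LP4 and 38.3, 53.2, 46.7 and 50.1 CPM in SP4, and fell by 1.31 (SE 0.20, adjusted p = 0.00192), in all leave-one-out fits. The opposite moves of SNTN and DNAH5 came from the same list. Glial and tanycyte markers gave 1 higher and 1 lower of 9 (22.2% called, against 14.8% of genes with a symbol). GLUL, glutamine synthetase, read 542, 329 and 667 CPM in LP4 and 287 to 311 CPM in SP4 (log2 fold change 0.79, adjusted p = 0.0211). The glutamate transporter EAAT1 read 84.5, 84.2 and 112 CPM in LP4 and 158 to 204 CPM in SP4 (-0.90, adjusted p = 0.0195, and 0.0638 without LP4 animal 2). GLUL held in 2 and EAAT1 in 4 of 7 leave-one-out fits, and the summed glial level of 635 to 1403 CPM in LP4 spanned the 808 to 1055 CPM of SP4. The part of cell composition in the DNAH5, SNTN, GLUL, EAAT1 and DIO2 results was not tested. Choroid plexus (4 genes) and leukocyte (10 genes) markers gave 0 calls by the quasi-likelihood test and by DESeq2, against 2 and 1 by the edgeR exact test and 2 and 1 at an unadjusted p under 0.05, with KCNJ13 at -0.14, HTR2C at -0.99 and LCP1 at 0.23. Of 7 skeletal muscle markers, 1 was higher, the slow myosin OMYHCS, at 1.38 (adjusted p = 0.0440; 2 of 7 leave-one-out fits) with overlapping groups.

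Structural RNAs rested on a single library. Of 123 tested, 15 were higher and 122 had a positive log2 fold change, with a median of 1.44. The called share of 12.2% lay near the 14.8% of genes with a symbol and is no result about the list. Without LP4 animal 2 the median was -0.03, with 2 higher and 1 lower. The nucleolar SNORA46, for example, read 139 CPM in LP4 animal 2 and 2.47 to 6.30 CPM in the other 6 animals. Some copies of SNORD113 differed, being higher in each LP4 animal, such as 1 copy at 38.0, 58.2 and 26.4 CPM in LP4 and 13.9 to 18.4 CPM in SP4.

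**Figure D4:**
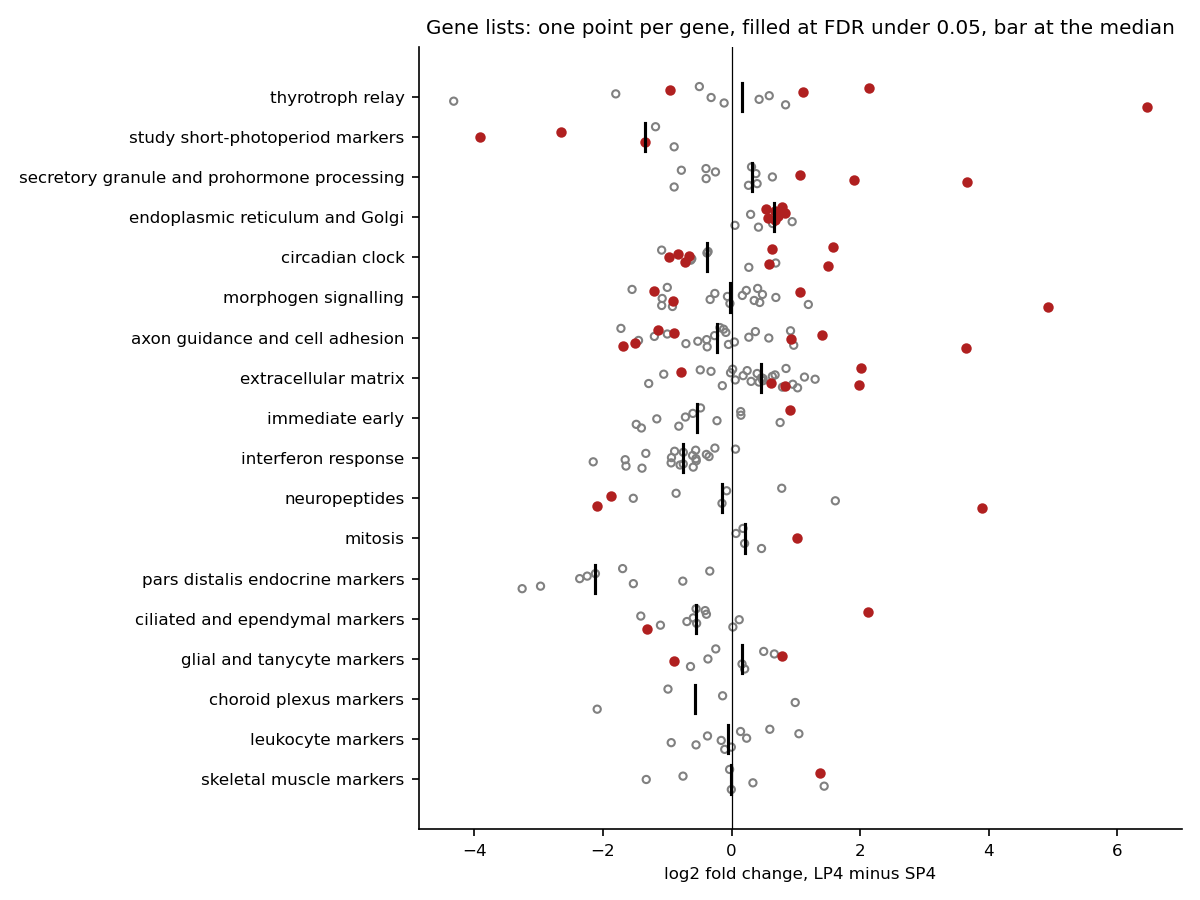
Log2 fold change, LP4 minus SP4 (horizontal axis), of each tested member of 18 gene lists, 1 point per gene, filled red at an adjusted p under 0.05, with a bar at the list median. All 12 endoplasmic reticulum and Golgi genes lie to the right of 0, and the 9 pars distalis markers to the left with none called.

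The same genes were read in LP22 against SP16, a comparison that shares no animal with the early one. Of all genes tested, 3.23% were called there, 1.73% as higher in LP22 and 1.49% as lower. Symbols were attached only to genes the study had called changed, and its comparisons included LP22 and SP16. Late agreement of the named genes may therefore be partly set by their selection and is not independent evidence. The late share called among genes with a symbol was not computed, and 3.23% is no baseline for them. Of the 12 genes with the highest increase at 4 weeks, 11 were also higher in LP22, and of the 12 lowest, 4 were also lower (NPSR1, C1orf110, SEMA3D and DCC). TSHB rose by 5.002 ± 0.473 (adjusted p = 7.64e-06) and LRRC17 by 2.43 ± 0.18 (adjusted p = 1.03e-06). The other 8 decreases had the same sign in the late comparison without passing, such as RPE65 at -0.57 and AGRP at -0.12. For none of the 12 was the difference between early and late called, so these genes are not shown to differ between the times.

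DCT was the exception among the increases. It stood at 14.1 ± 6.45 CPM in LP22 and 9.80 ± 5.42 CPM in SP16 (SD, n = 4 each), a late log2 fold change of 0.61 ± 0.45 (adjusted p = 0.575). The early effect exceeded the late one by 4.64 ± 0.69 (adjusted p = 0.0173), and DCT was 1 of 12 genes, 0.0892% of those tested, for which the 2 effects differed. Of the others, 4 genes with a symbol were also called early and were picked out after their values were seen. BCAS1 rose by 1.66 early (adjusted p = 0.00691) and stood at -1.05 late, MLF1 rose by 0.82 early (adjusted p = 0.000193) and stood at -0.02 late, and RMST_6, a non-coding RNA, fell by 1.38 early (adjusted p = 0.00173) and stood at 0.23 late. The signal recognition particle RNA listed as Metazoa_SRP rose by 0.85 early (adjusted p = 0.0228) and stood at -0.55 late. For SHH, VGF, CHGA and RET the early and late effects were not called as different: SHH rose by 4.92 early and 2.08 late (adjusted p of the difference 0.0895), VGF by 3.66 and 1.56 (0.0778), while RET fell by 1.20 and 2.39 (0.0931) and CHGA stood at -0.89 and -2.76 (0.0931).

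**Figure D5:**
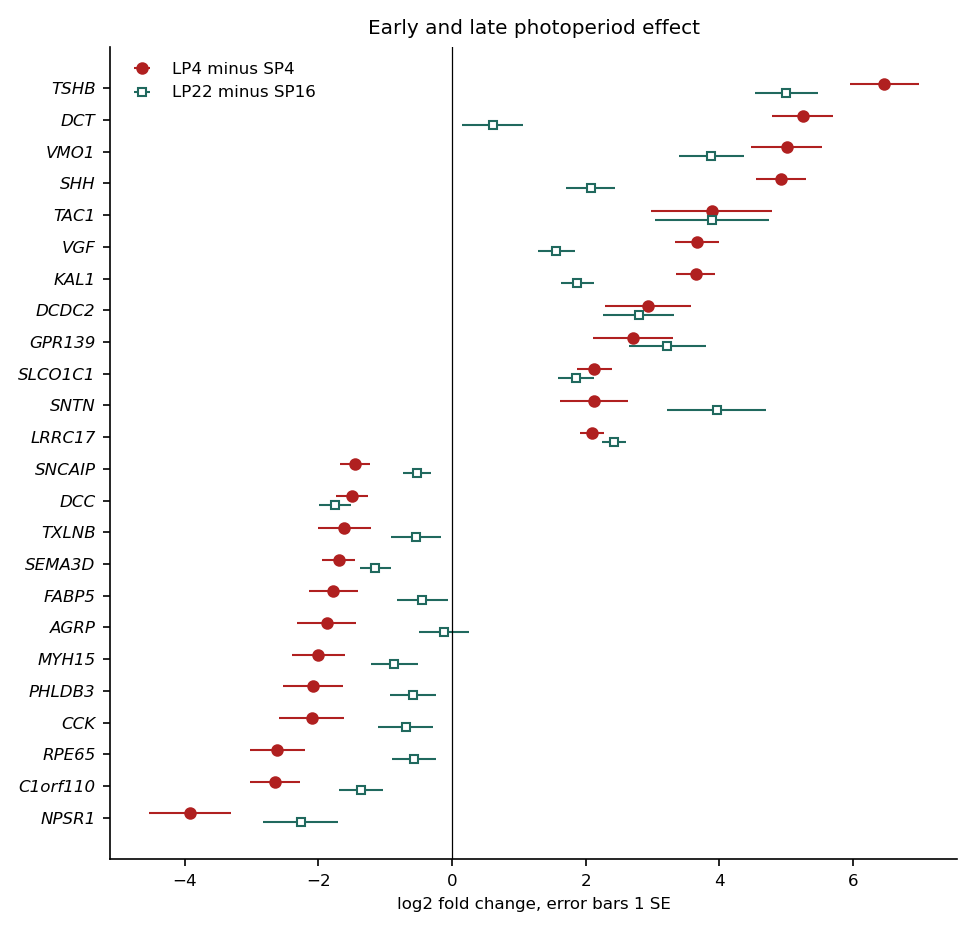
Log2 fold change with 1 SE for LP4 minus SP4 (filled red circles) and LP22 minus SP16 (open green squares) at the 12 highest and 12 lowest named genes. The circles and squares of TSHB lie at 6.47 and 5.002, those of DCT at 5.25 and 0.61, and all 24 genes have the same sign at both times.

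Genes without a symbol followed the same ranges. ENSOARG00000008353 read 38.0, 43.1 and 36.9 CPM in LP4 and 13.02, 10.3, 18.0 and 16.3 CPM in SP4, a rise of 1.47 ± 0.17 (adjusted p = 0.000115) that held in all leave-one-out fits. ENSOARG00000011488 rose by 2.23 (adjusted p = 0.0352; 1 of 7 fits), ENSOARG00000025118 fell by 2.03 (adjusted p = 0.0313; 1 of 7 fits, and 0.0538 without LP4 animal 2) and ENSOARG00000015012 fell by 1.94 (adjusted p = 0.0251; 2 of 7 fits).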

How the data were processed

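Groups, animal numbers and repeats came from the labels. The authors deposited, for each library, the raw count of reads in every gene; per the labels and the study's methods the authors aligned reads with Bowtie to Oar_v3.1, used SAMtools and counted with HTSeq. Versions, strand setting and the rule for multi-mapped reads are not given in the sources used here, so close paralogs, overlapping and antisense genes are uncertain. Each file listed 25197 IDs and 5 summary lines; reads in no gene took 78.6% to 84.5% of aligned reads in the libraries used, and stayed out of library sizes. The files do not pair IDs with names and 0 IDs matched the reference gene table, so symbols were taken from the ID and symbol columns of the study's supplementary tables, which list genes the study called changed; 1259 IDs have one, and no other column was read. Gene lengths and coordinates were not used here, so levels are not compared between genes.

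Genes were kept by filterByExpr (minimum count 10, minimum total 15), TMM-scaled, and compared by the quasi-likelihood test of edgeR 4.0.16 in R 4.3.3. All 4 groups (15 animals) entered 1 fit, with 2-sided tests and Benjamini-Hochberg adjustment over 13446 genes. CPM are counts per 1000000 TMM-scaled counts; standard errors were derived from the F statistic, and intervals of counts cover counting error only. Leave-one-out fits omitted each of the 7 animals in turn. The script was tested on simulated data.

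The lists, their members and the comparison were chosen with earlier results of these data known. Named genes were all relay and marker genes, the 12 highest and 12 lowest called genes with a symbol, a mean of at least 1 CPM and no overlap of the groups (structural RNAs aside), up to 4 called members of each other list (the 2 most abundant where fewer than 2 were called), and 2 IDs without a symbol in each direction. Further called members of a list are also named in the text, and some members counted in a list are not reported here by name.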

Additional observations from a re-analysis of the deposited data

Results flagged for a closer look

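In SP4, the 1 group of 4 in the comparison, 10 of 79 named genes had a sample whose gap to the nearest other animal took a share of the group's range above Dixon's 95% critical value for 4 samples. Chance gives about 1 in 20 groups, or 3.95 of 79. SP4 animal 4 stood high for CGA (1337 CPM), POU1F1 (26.2 CPM), VCAN (441 CPM) and PRL (6688 CPM). SP4 animal 1 stood high for RNF213 (661 CPM), IFIT1 (279 CPM), MYH15 (31.2 CPM) and PCSK1 (110 CPM). SP4 animal 2 stood high for SHH (1.65 CPM) and low for VMO1 (0.41 CPM). Both rested on few counts: SHH had 3, 4, 1 and 1 counts in SP4 animals 1 to 4, and VMO1 had 18, 1, 7 and 7. A further result stood out by a test of the difference: the effect of photoperiod on DCT was larger by 4.64 on the log2 scale at 4 weeks than in the late comparison.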

How the results depend on the processing

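The count was 241 genes (164 higher, 77 lower). It was 12 (9 and 3) with LP4 animal 3 put back and 27 (22 and 5), 26 of them among the 241, with both outlying libraries put back; DBP then turned to a log2 fold change of 0.058 and 0.129. The exact test called 376 (250 and 126), the 7 animals fitted alone 96 (65 and 31), and those without LP4 animal 2, a setting chosen after the data were seen, 153 (107 and 46). A log2 fold change of at least 1 left 100 (70 and 30). Leaving out 1 animal gave 133 to 277 calls (91 to 200 higher, 42 to 77 lower); the count fell to 133 without SP4 animal 2 and 149 without SP4 animal 1. With the animal number as a replicate block, 158 genes were called (102 higher, 56 lower). The 3 same-numbered pairs correlated at -0.16 to 0.04, and unlike-numbered pairs at -0.20 to 0.26. With so few pairs these values cannot tell whether the numbers pair the animals. RLE and upper-quartile scaling, DESeq2, the robust fit, both other filters and the other uses of the repeat libraries gave 199 to 298 calls. With 3 animals in LP4 and a median of 2296280 counts a library, genes near 1 CPM rest on few counts.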

Other observations

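Genes outside the lists, picked out after their values were seen, also changed in LP4. At each gene named here the LP4 and SP4 animals did not overlap, as at 227 of the 241 called genes and at 11.6% of all genes tested. For called genes picked in this way the gap is no finding. Chromatin genes included the histone methyltransferases EZH2, at 113, 152 and 74.7 CPM in LP4 and 33.9 to 44.9 CPM in SP4 (a rise of 1.57 ± 0.23, adjusted p = 0.00120), and SUV39H2, at 67.8, 60.7 and 62.1 CPM against 24.8 to 33.8 CPM (a rise of 1.07 ± 0.14, adjusted p = 0.000397). JADE3, a subunit of a histone acetyltransferase complex, rose by 0.94 (adjusted p = 0.00607). The linker histone H1F0 fell by 1.02 (adjusted p = 0.00564), from 83.7 to 108 CPM to 31.0 to 57.2 CPM, but stood at 147 CPM in the left-out library of LP4 animal 3.

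Membrane transporters were among the increases. ABCG2, an efflux pump, read 85.8, 93.0 and 66.7 CPM in LP4 and 21.2 to 35.9 CPM in SP4 (a rise of 1.52 ± 0.20, adjusted p = 0.000468). The amino acid transporter SLC7A8 rose by 1.45 (adjusted p = 0.0193; 0.0638 without LP4 animal 2), the zinc transporter SLC39A6 by 0.96 (adjusted p = 0.00198) and the phospholipid flippase ATP8B4 by 0.96 (adjusted p = 0.00414). Of cell surface receptors, the dopamine receptor DRD1 rose by 1.71 (adjusted p = 0.0154), from 1.81 to 2.85 CPM to 7.54 to 9.39 CPM, and the neurotrophin receptor NGFR by 1.55 (adjusted p = 0.0414; 0.0956 without LP4 animal 2). The endothelin receptor ETBR fell by 0.90 (adjusted p = 0.00335), and the cannabinoid receptor CNR1 by 1.04 (adjusted p = 0.0386; 0.118 without LP4 animal 2). Among genes of lysosomes and trafficking, LYST read 559, 580 and 536 CPM in LP4 and 261 to 305 CPM in SP4 (a rise of 0.97 ± 0.11, adjusted p = 5.93e-05) and SORL1 rose by 0.64 (adjusted p = 0.00371).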
